A study of Mus musculus with 6 samples.

Results

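Mitochondria import nearly all of their proteins from the cytosol, and the genes described here encode the machinery that brings them in, folds them and clears them. The set was defined as the protein-coding mouse genes whose symbol starts with Timm or Tomm, together with Hspa9, Hspd1, Hspe1, Trap1, Grpel1, Clpp, Clpx, Lonp1, Pmpca and Pmpcb. It holds 36 of the 24415 genes counted: 16 Timm genes, 10 Tomm genes and the 10 named ones. RNA was sequenced from the inguinal depot of subcutaneous white fat of mice aged 12 weeks on a C57BL/6 background that were not fasted. WT mice gave 3 libraries and Hsp20 KO mice gave 3, and the labels number them as replicates without saying that each came from a separate mouse. Hsp20 is a small heat shock protein encoded by Hspb6. The labels name no drug, Cre driver or sex, and the sources used here do not state which part of Hspb6 the allele lacks.

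As background, precursor proteins are recognised by receptors of the TOM complex in the outer membrane and pass through its channel, Tomm40. Small TIM chaperones carry membrane proteins across the intermembrane space to the TIM22 complex, while proteins with a cleavable presequence enter through the TIM23 complex and are pulled into the matrix by a motor built around the Hsp70 protein Hspa9. In the matrix the presequence is cut off by the processing peptidase, the chaperonin of Hspd1 and Hspe1 folds many of the new proteins, and the proteases Lonp1 and Clpp with Clpx degrade damaged ones. Thermogenic fat cells are rich in mitochondria.

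Libraries held between 14078936 and 32648746 counts, and the library labelled Hsp20 KO replicate 3 was the smallest. The targeted gene Hspb6 had 325, 289 and 296 counts in WT libraries 1 to 3 and 245, 33 and 53 in the libraries labelled knockout replicates 1 to 3. In its Hspb6 counts the library labelled knockout replicate 1 therefore goes against its label, and whether that label is right was not tested. The directions below include this library unless it is said to be left out. Adipocyte markers were high throughout: Adipoq, the adiponectin gene, ran from 1484 to 1807 CPM in WT and from 1036 to 1559 CPM in the libraries labelled knockout, where CPM is the count scaled to the TMM-normalized library total. None of the 10 adipocyte markers was at 0, and 0 of 10 were called in either direction. Of 10 thermogenic markers 9 rose, with a summed level of 92.9 to 138 CPM in WT and of 283, 868 and 992 CPM in the libraries labelled knockout replicates 1 to 3. Without the library labelled knockout replicate 1 all 10 were called, against 5.82% of all genes higher in that fit. With 1 of the other libraries left out 2 to 6 were, against 0.464% to 2.01% of all genes. The 6 blood markers summed to between 8987 and 10318 CPM in WT and between 3963 and 4835 CPM in the libraries labelled knockout, and 5 of them fell. With all libraries, 4.23% of all genes were called higher and 3.42% lower. None of the 10 macrophage markers was called, with sums of 1811 to 2072 and 1469 to 1916 CPM. Without the library labelled knockout replicate 1, 5 of them were called lower, against 4.52% of all genes. The 7 skeletal muscle markers summed to 772 CPM in WT replicate 1 and to between 49.9 and 113 CPM in the other 5 libraries, with 0 called. Of 7 endothelial markers 1 fell, and 0 of 7 progenitor, 0 of 9 lymphocyte and 0 of 3 tested mammary markers were called. Without the library labelled knockout replicate 1, 2 progenitor markers were called lower, against 4.52% of all genes. Without the one labelled replicate 2, 4 lymphocyte markers were called lower, against 1.77% of all genes. Without the one labelled replicate 3, 1 lymphocyte marker was called higher, against 2.01% of all genes. The part of these cell types in the results below was not tested, and in whole tissue fewer cells of a type and less RNA per cell cannot be told apart.

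Most import and chaperone genes had small log2 changes above 0 in the libraries labelled knockout, and few passed the test. Of the 35 members with enough counts to test, 4 rose and 0 fell at a Benjamini-Hochberg adjusted p under 0.05 (edgeR quasi-likelihood test across all genes). The background for that call is 7.65% of 15994 genes in either direction, 4.23% higher and 3.42% lower. Leaving out the library labelled knockout replicate 1 gave 8 members higher and 0 lower, against 5.82% and 4.52% of all genes in that fit. The 4 called with all libraries were Grpel1 and Hspa9 of the import motor, the channel Tomm40 and the small TIM Timm13, and they rose between 1.30-fold and 1.44-fold. The log2 change was above 0 for 31 of 35 members, 88.6%, against a background of 50.1% of all genes tested, and the member median was 0.21 against 0.001 for all genes. Every library labelled knockout lay above every WT library for 17 members and below for 0, where the background is 16.9% of all genes higher and 15.6% lower. By unadjusted p (under 0.05), 15 members were higher and 0 lower, against a background of 13.3% and 12.7%. With that library left out, 31 of 35 members were above 0, 26 lay above WT without overlap and 1 below (23.5% and 22.4% of all genes), and 21 were higher and 1 lower by unadjusted p (13.8% and 13.2% of all genes). The remaining member, Timm8a2, a rare small TIM, had 1, 2 and 1 counts in WT and 8, 4 and 0 counts in the libraries labelled knockout and was not tested.

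**Figure D1:**
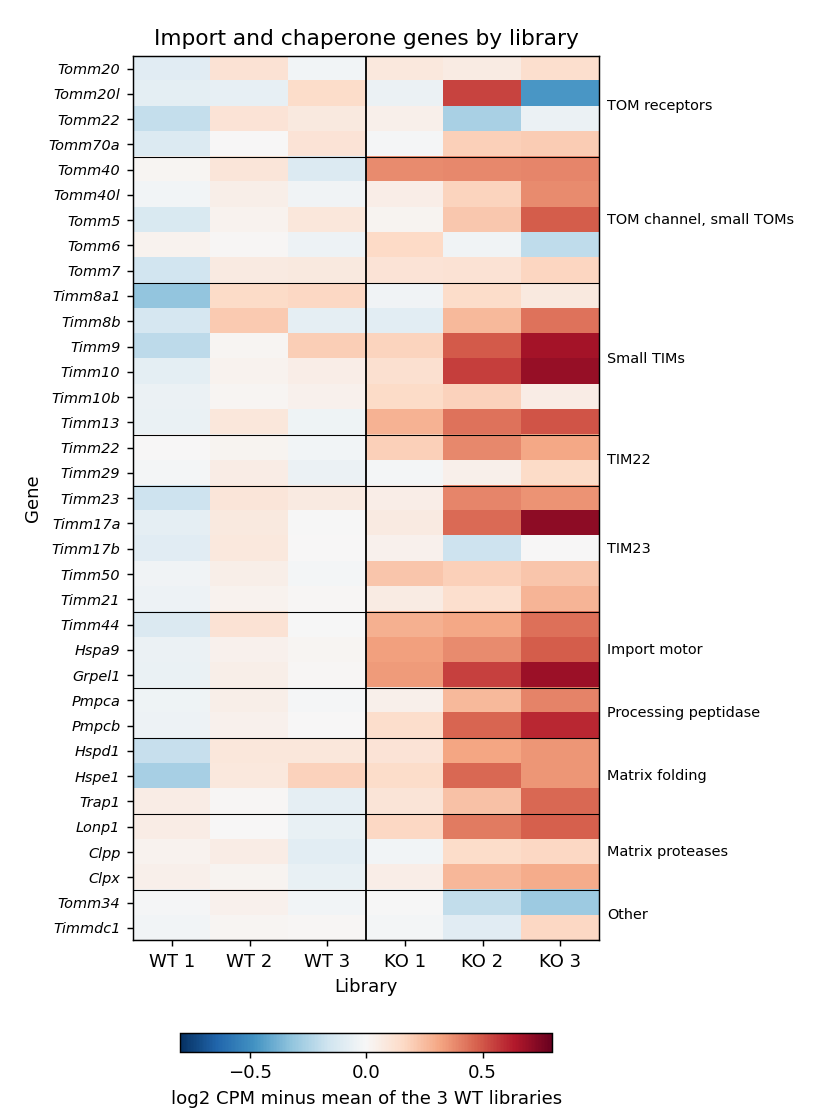
Each row is 1 of the 35 tested genes, grouped by role, and each column 1 library. Colour gives log2 CPM minus the mean of the 3 WT libraries of that gene. The columns labelled KO 2 and KO 3 are redder than KO 1 in most rows, and the TOM receptor rows are pale apart from the rare Tomm20l.

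Promoter windows are printed for the called members Grpel1, Timm13 and Tomm40 and for Hspe1 of the chaperonin pair. They show which letters near the starts match motifs of mitochondrial and stress regulators. Each window runs from 250 bases before to 50 bases after the RefSeq start on GRCm38.p6, and 32 of 36 members matched, with 35 windows. The members without a match were Hspa9, Timm21, Tomm7 and Tomm40l. The motifs, searched on both strands, were GCGCA, any base and GCGC for NRF1, CCGGAAG for ETS factors such as GABP, TNAAGGTCA for ERR receptors, GAA, TTC and GAA with any 2 bases between each for heat shock factors and TGATGNAA for ATF4 with C/EBP. Hspd1 and Hspe1 lie head to head on chromosome 1. Hspd1 spans 55077833 to 55088243 on the minus strand and Hspe1 55088148 to 55091317 on the plus strand. Hspd1 has a window at 55087883 to 55088182, which covers most of the printed Hspe1 window and also holds 2 heat shock and 2 ETS matches. Another Hspd1 window, at 55088194 to 55088493, lies at the gene end given here. It holds 1 NRF1 match and no heat shock or ETS match, and neither Hspd1 window is printed. Capitals mark every match to these motifs.
Hspe1, chr1:55087898-55088197, plus strand: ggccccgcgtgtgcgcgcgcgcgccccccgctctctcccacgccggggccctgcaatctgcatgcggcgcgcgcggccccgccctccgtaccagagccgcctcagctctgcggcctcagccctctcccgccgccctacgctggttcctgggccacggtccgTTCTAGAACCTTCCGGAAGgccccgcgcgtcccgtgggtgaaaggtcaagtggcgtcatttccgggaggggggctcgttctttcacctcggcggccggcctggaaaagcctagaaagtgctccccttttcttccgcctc
Grpel1, chr5:36464935-36465234, plus strand: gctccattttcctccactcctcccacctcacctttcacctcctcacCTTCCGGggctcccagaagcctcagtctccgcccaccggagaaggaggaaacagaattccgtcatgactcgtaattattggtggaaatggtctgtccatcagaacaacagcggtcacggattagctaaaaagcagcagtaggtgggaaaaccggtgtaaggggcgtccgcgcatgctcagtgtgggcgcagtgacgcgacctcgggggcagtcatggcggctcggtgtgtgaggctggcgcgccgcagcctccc
Timm13, chr10:80900920-80901219, minus strand: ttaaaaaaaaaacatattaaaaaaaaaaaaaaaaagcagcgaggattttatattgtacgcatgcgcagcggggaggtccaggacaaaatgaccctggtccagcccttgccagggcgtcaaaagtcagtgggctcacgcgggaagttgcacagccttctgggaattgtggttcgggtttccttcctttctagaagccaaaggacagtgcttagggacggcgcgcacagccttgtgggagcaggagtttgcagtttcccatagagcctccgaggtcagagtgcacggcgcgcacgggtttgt
Tomm40, chr7:19715380-19715679, minus strand: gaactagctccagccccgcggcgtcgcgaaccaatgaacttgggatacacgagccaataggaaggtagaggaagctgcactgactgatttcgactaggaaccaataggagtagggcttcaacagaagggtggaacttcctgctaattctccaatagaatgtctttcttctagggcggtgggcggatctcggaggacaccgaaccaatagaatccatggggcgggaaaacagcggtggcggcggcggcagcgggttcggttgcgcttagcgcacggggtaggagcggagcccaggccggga
In the window of Hspe1 the capitals hold 2 heat shock and 2 ETS matches that overlap. The window of Grpel1 holds 1 ETS match, and those of Timm13 and Tomm40 hold none of the 5 motifs.

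Over all member windows, the ETS letters were found in 48.6%, against 15.1% of the windows of all tested genes and 8.86% of all windows of this length. The heat shock letters were in 8.57% of member windows, those of Hspd1, Hspe1 and Timm9, against 0.505% of tested-gene windows and 0.603% of all windows. The Hspd1 window that holds these letters and the Hspe1 window share the same run of bases. The NRF1 letters were in 8.57% of member windows (Hspd1, Timm8b and Tomm20) against 8.46% of tested-gene windows and 4.60% of all windows. The ERR letters were in 2.86%, the window of Timm8b, against 0.857% and 1.28%, and the ATF4 letters in 0 of 35 windows against 2.62% and 3.97%. Of the 3 called members with a printed window only Grpel1 held ETS letters, and ETS letters were also found for members with log2 changes near 0, such as Tomm22 and Timmdc1. These matches describe letters and were not tested against the changes in expression.

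Among the roles within the set, the import motor had the highest median log2 change, 0.40 over 3 genes. The 7 further motor genes and cofactors outside the set had a median of 0.28, below the 0.304 of the small TIMs. Hspa9, the mitochondrial Hsp70 that pulls precursors inward (gene ID 15526, chromosome 18, 34937414 to 34954351 on GRCm38, minus strand), had 337, 358 and 352 CPM in WT libraries 1 to 3. It had 438, 453 and 488 CPM in the libraries labelled knockout replicates 1 to 3. The groups did not overlap, and the lowest knockout library stood well clear of the highest WT one. The mean rose from 349 ± 10.4 to 460 ± 25.5 CPM (SD, n = 3 each), a log2 difference of 0.40 ± 0.09 (SE, edgeR adjusted p = 0.0452). Grpel1, the nucleotide exchange factor that resets Hspa9 and whose window above holds ETS letters (gene ID 17713, chromosome 5, 36465185 to 36474077), had 57.1, 61.2 and 59.8 CPM in WT and 75.0, 86.8 and 95.4 CPM in the libraries labelled knockout. It had the largest log2 change of the members, 0.53 ± 0.10 (SE, edgeR adjusted p = 0.0251), or 1.44-fold. Of the exon length of Grpel1, 11.6% overlaps Tada2b on the opposite strand. Timm44, which tethers Hspa9 to the inner membrane channel, had 38.2, 44.8 and 41.2 CPM in WT and 50.4, 51.3 and 56.1 CPM in the libraries labelled knockout, again without overlap. Its log2 change of 0.34 ± 0.09 did not pass (edgeR adjusted p = 0.0558). The log2 ratio of Hspa9 to Grpel1 was 2.562, 2.546 and 2.557 in WT and 2.545, 2.384 and 2.353 in the libraries labelled knockout, so replicate 1 lay only just below WT. The mean difference was -0.128 (exact permutation test, two-sided, p = 0.1, the smallest that 3 against 3 can give, and 0.3 adjusted over 12 pairs of members).

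**Figure D2:**
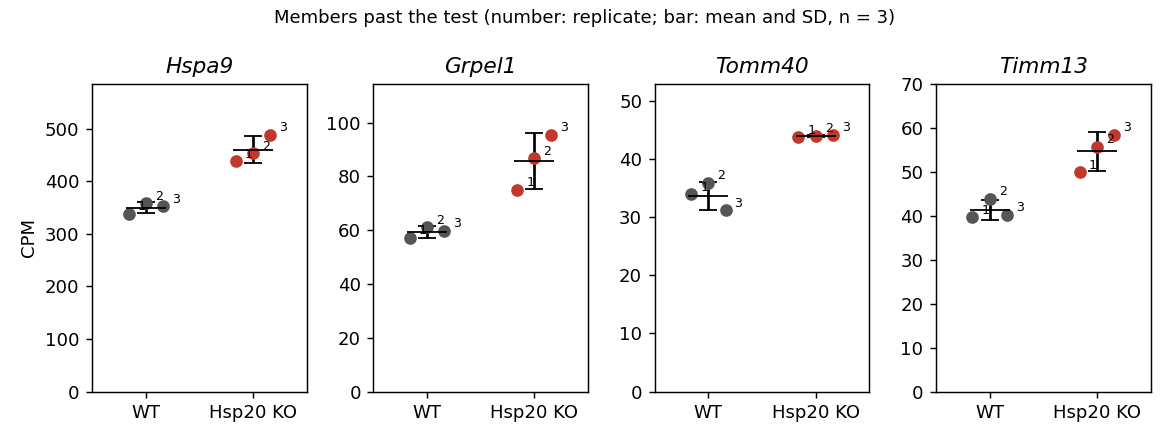
Points are CPM in single libraries, numbered by replicate, for the 4 members that passed the test, with a bar at the mean and its SD (n = 3). The y axes start at 0. Every library labelled knockout lies above every WT library, and the 3 of Tomm40 lie between 43.7 and 44.1 CPM.

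In the TOM complex the channel rose and the receptors were not called. Tomm40, the channel through which nearly all precursors enter (gene ID 53333, chromosome 7, 19701313 to 19715442, minus strand), had 33.9, 35.9 and 31.1 CPM in WT libraries 1 to 3. In the libraries labelled knockout it had 43.7, 44.0 and 44.1 CPM, nearly the same in each. This was a log2 difference of 0.38 ± 0.08 (SE, edgeR adjusted p = 0.0314), or 1.30-fold. Tomm40 lies at -10.85 Mb from Hspb6 on the same chromosome, and 15.4% of its exon length overlaps Gm20512 on the opposite strand. Its paralog Tomm40l had a log2 difference of 0.21 ± 0.10 (edgeR adjusted p = 0.225), and 45.5% of its annotated exon length overlaps Nr1i3 on the opposite strand, which held 11 to 35 counts. The difference in the log2 ratio of Tomm40 to Tomm40l was 0.182 (exact permutation p = 0.3), so unequal change of the paralogs was not shown. Tomm20, the receptor for presequences, had 77.7, 89.6 and 81.4 CPM in WT against 87.7, 86.7 and 90.8 CPM, and the groups overlapped. Its log2 change was 0.09 ± 0.08 (edgeR adjusted p = 0.498). Tomm70a, the receptor for carrier proteins that docks cytosolic Hsp70 and Hsp90, had 69.6, 75.3 and 81.1 CPM against 74.7, 86.0 and 86.6 CPM, again with overlap (log2 change 0.13 ± 0.09, edgeR adjusted p = 0.425). Tomm22, the central receptor, had a log2 difference of -0.09 ± 0.11, with 51.1, 41.6 and 48.0 CPM in the libraries labelled knockout against 43.6 to 53.6 CPM in WT. The rare paralog Tomm20l held between 4 and 15 counts in a library, too few to resolve a change (0.10 ± 0.35). Among the small TOM subunits that assemble around the channel, Tomm5 had a log2 difference of 0.24 ± 0.13, Tomm7 of 0.13 ± 0.09 and Tomm6 of -0.01 ± 0.10. Tomm6 is uncertain, since 81.7% of its exon length is shared with the overlapping gene Gm21981.

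Of the 6 small TIMs tested, hexameric chaperones of the intermembrane space, 1 rose and 0 fell. Timm13, which works with Timm8 (gene ID 30055, chromosome 10, 80899450 to 80900969, minus strand), had 39.7, 44.0 and 40.2 CPM in WT and 49.9, 55.7 and 58.4 CPM in the libraries labelled knockout, with no overlap (log2 change 0.40 ± 0.09, edgeR adjusted p = 0.0365). Timm9 and Timm10, partners in the other hexamer, had log2 changes of 0.44 ± 0.17 and 0.47 ± 0.16, as large as that of Timm13, but did not pass (edgeR adjusted p = 0.147 and 0.118). Timm10 had 7.72, 8.29 and 8.44 CPM in WT and 8.89, 12.0 and 13.2 CPM in the libraries labelled knockout, so the library labelled replicate 1 lay just above WT. The log2 ratio of Timm9 to Timm10 differed by -0.016 between the groups (exact permutation p = 0.9). Timm8a1, whose human counterpart is mutated in a deafness and dystonia syndrome, had a log2 difference of 0.05 ± 0.15, Timm8b of 0.20 ± 0.15 and Timm10b, a TIM22-bound small TIM, of 0.14 ± 0.08.

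At the inner membrane no member of TIM22 or TIM23 passed. Timm23, the presequence channel, had 73.1, 87.7 and 86.0 CPM in WT against 84.9, 107 and 105 CPM, and the library labelled knockout replicate 1 lay inside the WT range (log2 change 0.27 ± 0.12, edgeR adjusted p = 0.193). Timm22, the carrier channel, had a log2 difference of 0.30 ± 0.09 with groups that did not overlap (edgeR adjusted p = 0.0835), and its partner Timm29 of 0.06 ± 0.08. Timm50, the receptor of TIM23, had 32.9, 34.6 and 33.1 CPM in WT and 39.0, 38.2 and 39.1 CPM in the libraries labelled knockout, close together within each group and without overlap (log2 change 0.21 ± 0.07, edgeR adjusted p = 0.105). It lies at -2.25 Mb from Hspb6. Timm21, which links TIM23 to TOM, had a log2 difference of 0.16 ± 0.09. The paralogs Timm17a and Timm17b, alternative partners of Timm23, had log2 changes of 0.43 ± 0.15 and -0.04 ± 0.09. Their log2 ratio was 0.778, 0.754 and 0.761 in WT libraries 1 to 3 and 0.802, 1.38 and 1.48 in the libraries labelled knockout. The ratio was nearly constant over WT and above that level in every library labelled knockout, though only slightly so in replicate 1. The mean difference was 0.456 (exact permutation p = 0.1, the smallest possible, adjusted p = 0.3).

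No chaperone, peptidase or protease of the matrix passed. Hspd1, the chaperonin ring (Hsp60), had 243, 294 and 294 CPM in WT libraries 1 to 3 and 297, 344 and 353 CPM in the libraries labelled knockout (log2 change 0.26 ± 0.12, edgeR adjusted p = 0.211). The lowest knockout library lay only just above the highest WT ones. Hspe1, the lid of that ring (Hsp10), had 46.7, 59.5 and 63.9 CPM against 62.1, 77.2 and 71.8 CPM, with overlap (0.31 ± 0.13, edgeR adjusted p = 0.194). Their log2 ratio was 2.30 ± 0.089 in WT and 2.24 ± 0.074 in those labelled knockout (SD, n = 3 each, exact permutation p = 0.4). Trap1, the mitochondrial Hsp90, had a log2 difference of 0.27 ± 0.10 (edgeR adjusted p = 0.152). Lonp1, the main soluble protease of the matrix, had 122, 117 and 112 CPM in WT and 131, 156 and 163 CPM in the libraries labelled knockout, without overlap (0.36 ± 0.10, edgeR adjusted p = 0.0642). Clpp, the peptidase of the ClpXP protease, had 31.1, 31.7 and 28.8 CPM against 30.0, 33.7 and 34.2 CPM, with overlap (0.10 ± 0.09, edgeR adjusted p = 0.519), and its unfoldase Clpx had a log2 difference of 0.21 ± 0.09. Pmpca and Pmpcb, the subunits of the presequence peptidase, had log2 changes of 0.24 ± 0.10 and 0.41 ± 0.12 (edgeR adjusted p = 0.18 and 0.0739). The log2 ratio of Pmpca to Pmpcb was 0.144 ± 0.012 in WT and -0.027 ± 0.061 in those labelled knockout (SD, n = 3 each, exact permutation p = 0.1, adjusted p = 0.3). Since 25.0% of the exon length of Pmpca overlaps Inpp5e, part of its counts may belong to that gene.

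A pair of genes carry a Tomm or Timm symbol but do not import proteins through these channels. Tomm34, a mostly cytosolic co-chaperone, had the most negative log2 change of the members, -0.16 ± 0.09 (edgeR adjusted p = 0.314), with 47.5, 49.2 and 47.1 CPM in WT against 47.8, 41.9 and 39.2 CPM. Only the library labelled knockout replicate 1 lay within the WT range. Timmdc1, an assembly factor of respiratory complex I, had a log2 difference of 0.02 ± 0.09 (edgeR adjusted p = 0.906).

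**Figure D3:**
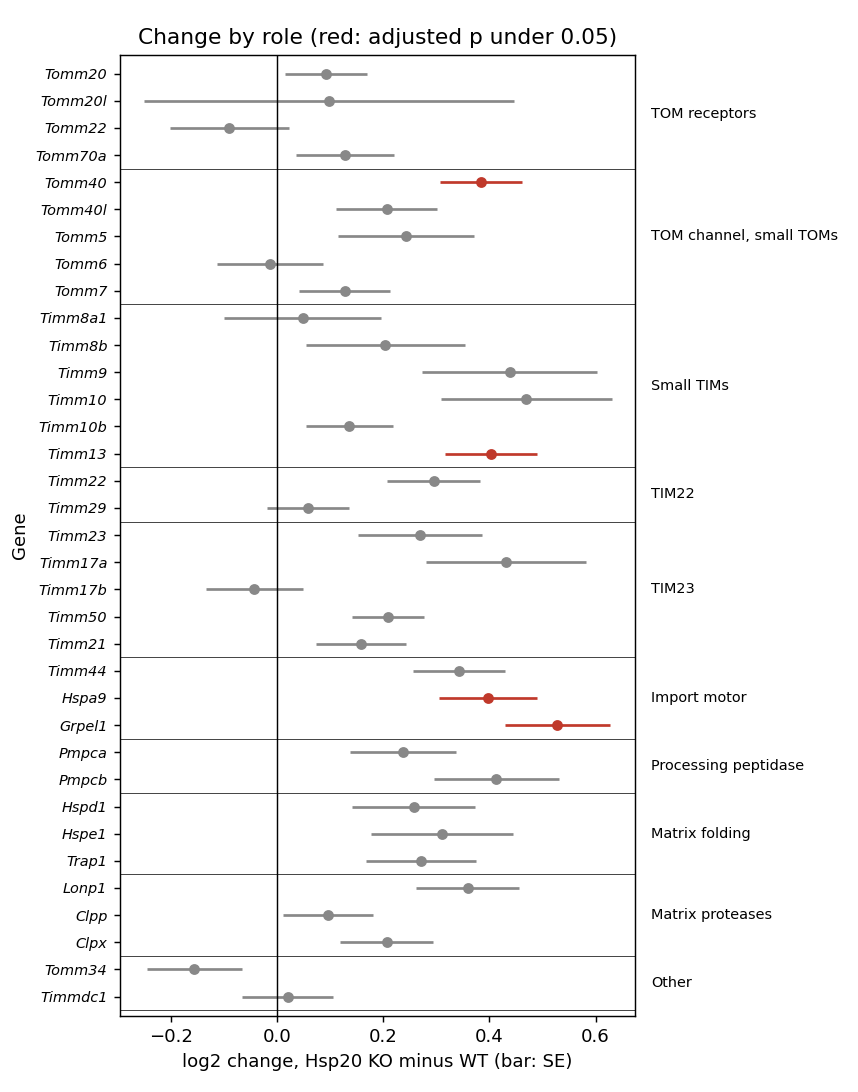
The x axis gives the log2 change, Hsp20 KO minus WT, for each of the 35 tested genes, with its SE as a bar, grouped by role on the y axis. Red marks the 4 genes past the test. Values run from -0.16 for Tomm34 to 0.53 for Grpel1, and the 3 motor genes lie between 0.34 and 0.53.

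The calls did not survive the loss of most single libraries. Without WT replicate 1, 2 or 3, or without the library labelled knockout replicate 2, edgeR called 0 members. By unadjusted p (under 0.05), 10, 11, 11 and 11 members were higher and 0 lower in these fits. Calls were also fewer over all genes, with 2%, 0.488%, 0.464% and 2% called higher, against 4.23% with all libraries. By unadjusted p, 11.8%, 10%, 9.34% and 11.8% of all genes were higher, against 28.6%, 31.4%, 31.4% and 31.4% of the members. Without the library labelled knockout replicate 3 edgeR called Grpel1 alone, against 2.01% of all genes called higher. Without the one labelled replicate 1 it called 8, the same 4 with Lonp1, Pmpcb, Timm10 and Timm17a, and the member median was 0.33. The log2 change of Hspa9 stayed between 0.36 and 0.43 in these fits, with edgeR adjusted p from 0.0321 to 0.174, and that of Grpel1 between 0.45 and 0.62, with adjusted p from 0.00698 to 0.108. Tomm40 ran from 0.33 to 0.43 (adjusted p from 0.0413 to 0.133) and Timm13 from 0.36 to 0.47 (adjusted p from 0.02 to 0.15). DESeq2 on all libraries called 7 members higher and 0 lower, adding Lonp1, Pmpcb and Timm44.

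The libraries labelled knockout differed in how far their import genes lay above WT. The median deviation of the 35 members from the WT mean was -0.06, 0.05 and 0.002 on the log2 scale in WT libraries 1 to 3. It was 0.08, 0.26 and 0.35 in the libraries labelled knockout replicates 1 to 3, so the library that kept most of its Hspb6 counts lay nearest to WT. That library was the lowest of the knockout ones for 26 of 35 members, 74.3%, against 33.6% of all genes tested. WT replicate 1, which held the skeletal muscle transcripts, was the lowest WT library for 25 of 35 members, 71.4%, against 38.6% of all genes. The thermogenic marker sums given above also put the library labelled knockout replicate 1 nearest to WT.

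Among the members, levels per transcript length spanned a wide range. In WT, Hspa9 stood at 114 ± 3.42 and Hspd1 at 114 ± 12.2 CPM per kilobase of the longest principal transcript (SD, n = 3 each), and these did not differ beyond their spread. Hspe1 at 73.2 ± 11.6, Timm23 at 70.1 ± 6.83 and Trap1 at 65.9 ± 3.03 CPM per kilobase followed and likewise overlapped in their spread. Tomm40 stood at 20.5, Grpel1 at 16.8 and Tomm20 at 16.9 CPM per kilobase. The lowest were Timm22 at 5.70, Timm10b at 5.48 and Timm17a at 5.27 CPM per kilobase, and below them Tomm20l at 0.711. Reads shared with pseudogene copies, which RefSeq lists for Hspd1 and Hspa9, could change the levels of these genes.

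Of 12 further genes of the outer membrane and intermembrane space, 3 rose and 0 fell. The background for this and the next counts is 4.23% of all genes called higher and 3.42% lower. The 3 were Vdac1, the main metabolite pore (log2 change 0.40, edgeR adjusted p = 0.0392), Samm50, which inserts barrel proteins such as Tomm40 (0.33, 0.0469), and Mtch2, an outer membrane insertase (0.39, 0.0477). Aifm1, which anchors the oxidative import receptor Chchd4, had a log2 difference of 0.40 (edgeR adjusted p = 0.0551). Of 7 further motor genes and cofactors, Dnaja3, an Hsp40 partner of Hspa9, rose with a log2 difference of 0.39 (edgeR adjusted p = 0.0268), and 0 fell. Dnajc19 and Pam16, the J-domain and J-like proteins of the motor, had log2 changes of 0.30 and 0.36 (edgeR adjusted p = 0.0983 and 0.175), and Romo1, a small inner membrane protein, one of 0.27 (0.115). Of 14 further proteases and peptidases 3 rose and 0 fell. Immp2l, a subunit of the inner membrane peptidase, rose 1.90-fold (edgeR adjusted p = 0.00655), Afg3l2, a protease of the inner membrane, 1.45-fold (0.018) and Phb, a prohibitin that surrounds such proteases, 1.31-fold (0.0437). Phb2, its partner, had a log2 difference of 0.24 (edgeR adjusted p = 0.101). Taken as 1 group of 33, these genes had 7 calls higher. Without WT replicate 1, 2 or 3 edgeR called 2, 1 and 1 of them, against 2%, 0.488% and 0.464% of all genes higher. When knockout-labelled library 1, 2 or 3 was left out it called 11, 2 and 2, against 5.82%, 2% and 2.01% of all genes.

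Regulators of the mitochondrial unfolded protein response, which induces matrix chaperones and proteases when folding fails, had 0 of 7 calls by edgeR. By unadjusted p (under 0.05), 2 were higher and 1 lower, against 13.3% and 12.7% of all genes. The 2 higher genes were Atf5 and Ddit3, and the lower one was Nrf1, which is also on the list of biogenesis regulators. Atf5, a factor reported to drive this response in mammals, had 97.2, 88.5 and 86.6 CPM in WT and 115, 107 and 111 CPM in the libraries labelled knockout (log2 change 0.29 ± 0.08, edgeR adjusted p = 0.0594). Ddit3, which encodes CHOP, had a log2 difference of 0.37 ± 0.12 (edgeR adjusted p = 0.0995), and Cebpb, its dimer partner, of -0.24 ± 0.12 (0.257). DESeq2 called Atf5 (adjusted p = 0.0212), and edgeR called Ddit3 (adjusted p = 0.0263) once knockout-labelled library 1 was left out. Among 10 regulators of mitochondrial biogenesis 1 rose and 0 fell, against 4.23% of all genes called higher and 3.42% lower. Esrra, the nuclear receptor ERR alpha that controls many mitochondrial genes, had 42.9, 44.6 and 41.0 CPM in WT and 61.2, 77.3 and 74.5 CPM in the libraries labelled knockout (log2 change 0.73 ± 0.10, edgeR adjusted p = 0.0113), and was not called without WT replicate 2 or 3. Nrf1, nuclear respiratory factor 1, had a log2 difference of -0.26 ± 0.07 and lay lower in every library labelled knockout, at 24.1, 25.0 and 24.2 CPM against 30.4, 28.9 and 28.6 CPM, without passing (edgeR adjusted p = 0.0664). Tfb2m and Polrmt, which transcribe the mitochondrial genome, had log2 changes of 0.29 and 0.24 (edgeR adjusted p = 0.0892 and 0.143).

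Other protein classes were set beside the import genes. Of 82 tested subunits of the oxidative phosphorylation complexes 48 rose and 0 fell, 58.5% against the background of 4.23% higher, with a median log2 change of 0.51, against 0.21 for the import and chaperone genes. Of 78 mitochondrial ribosomal protein genes 3 rose and 0 fell, 3.85%, a share near that background, with a median of 0.18. Their log2 change was above 0 for 92.3%, against 88.6% of the import members and 50.1% of all genes. Every library labelled knockout lay above every WT library for 46.2% of them, against 48.6% of the import members and 16.9% of all genes. By unadjusted p (under 0.05), 35.9% of them were higher, against 42.9% and 13.3%. Without the library labelled knockout replicate 1 edgeR called 70 respiratory and 8 ribosomal genes higher, 85.4% and 10.3%, against 5.82% of all genes. Without WT replicate 1, 2 or 3 it called 10, 0 and 0 respiratory genes, against 2%, 0.488% and 0.464% of all genes. When knockout-labelled library 2 or 3 was left out it called 11 and 14, against 2% and 2.01% of all genes. Summed over the members, the level was 21.2%, 23.2% and 22.6% of the summed level of the respiratory subunits in WT libraries 1 to 3, and 20.3%, 18.4% and 17.9% in the libraries labelled knockout. Against the summed level of the mitochondrial ribosomal genes it was 108.6%, 109.4% and 107.0% in WT and 112.0%, 115.0% and 114.0% in the libraries labelled knockout. The first share was lower and the second higher in every library labelled knockout, and no test was made of either. Of 17 cytosolic chaperone genes 0 were called by edgeR, and the median was -0.01. By unadjusted p (under 0.05), 1 was higher and 0 lower, against 13.3% and 12.7% of all genes. Their direction depended on single libraries. Without WT replicate 1 the median was -0.091, with 23.5% above 0, and without WT replicate 3 it was 0.068, with 82.4% above 0. In both of these fits 0 were called. Of 14 chaperone genes of the endoplasmic reticulum 5 fell and 0 rose, 35.7% against the background of 3.42% lower, with a median of -0.41. In fits without 1 library, 0 to 4 of these were called lower, against 0.328% to 4.52% of all genes. No test was made of the difference between the groups of genes.

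**Figure D4:**
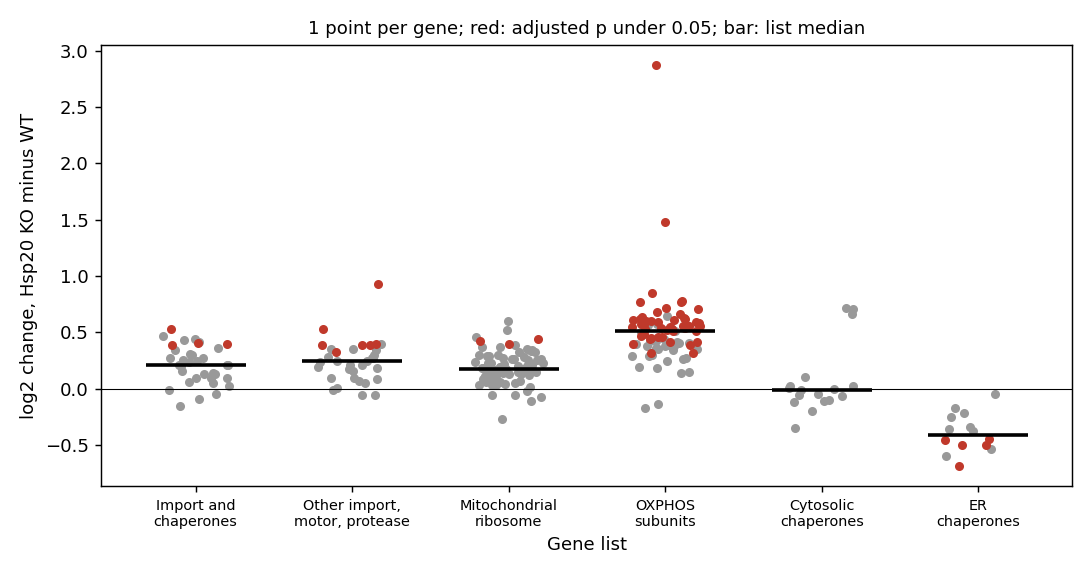
Each point is the log2 change, Hsp20 KO minus WT, of 1 gene in 6 gene lists on the x axis, with a bar at the list median and red for genes past the test. The import list has a median of 0.21, the respiratory subunits of 0.51 and the chaperones of the endoplasmic reticulum of -0.41.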

How the data were processed

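Read counts per gene, not normalized, were deposited by the authors with 1 column per sample. Builds GRCm38 and mm10 appear in the submitters' processing notes, with the tools TopHat, DESeq, CASAVA 1.8 and bcl2fastq. The sources used here do not state the counter, the annotation or the strand setting, and overlapping genes may share reads. Of 24415 gene IDs, 24334 matched symbols in a RefSeq table of GRCm38.p6, and all 36 members were found. The other 81 IDs held 1.30% to 5.74% of a library's counts.

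Genes were tested with edgeR 4.0.16, run in R 4.3.3 (quasi-likelihood F test on genotype) after filterByExpr with a minimum of 10 counts and a total of 15 and scaling by TMM, over all 6 libraries, with Benjamini-Hochberg adjustment over 15994 genes and a threshold of 0.05. SEs were taken from the F statistics. The biological coefficient of variation was 14.8%. Ratios of pairs used log2 CPM with a prior count of 2. Transcript lengths came from GENCODE M21. Nothing says that replicates came from separate mice, and the p-values measure only the spread between these samples, which may be technical. On counts simulated from these libraries (15830 genes tested) it called 21% of 1.5-fold and 81% of 2-fold changes, and 6.4% of its calls were of unchanged genes. Alternatives used DESeq2 1.42.0 and limma 3.58.1. Figures were drawn with matplotlib 3.10.9.

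The members, lists and tests were chosen with earlier results of these data known. Every tested member is named. Values by library are given for called members, for Hspa9, Hspd1, Hspe1, Lonp1, Clpp, Tomm20, Tomm40, Tomm70a and Timm23 and for the members with the most positive and most negative change, and other members shown this way were chosen after their values were seen. From the lists of other import, motor and protease genes and of regulators, the called genes and those with the smallest p, up to 4, are named, and the remaining lists are given as counts. No gene is ranked by likeness to Hspa9, since the libraries fall into groups.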

Additional observations from a re-analysis of the deposited data

How the results depend on the processing

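Changing the scaling (DESeq2 size factors or upper quartile), the filter on low counts, the dispersion estimate or the tool to limma-voom kept 4 or 5 members called higher and 0 lower. DESeq2 called 7 members and 1135 genes higher and 1024 lower in all, against 676 and 547. Thinning every library to the smallest left 2 members and 3 of the 33 other import genes called, and the log2 change of Hspa9 was 0.393 (edgeR adjusted p = 0.054). With the replicate number as a replicate block, edgeR called 0 members (17 higher and 0 lower by unadjusted p (under 0.05)), 1 of the other 33, and 226 genes higher and 169 lower, and Hspa9 had a log2 difference of 0.396 (adjusted p = 0.102). The numbers share no stated origin, and same-numbered libraries deviated together with correlations of -0.038, 0.092 and -0.096, so they were not taken as pairs. Leaving out single libraries gave 0 to 8 members and 1 to 11 of the other genes called higher, 75 to 941 genes higher and 53 to 730 lower, a log2 difference of Hspa9 from 0.36 to 0.431 and of Hspb6 from -1.987 to -0.645, called only without the library labelled knockout replicate 1 (edgeR adjusted p = 0.0221).

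Among 523 values of single members under these alternatives 8 changed sign, all uncalled. With single libraries left out, Tomm6 ran from -0.109 to 0.079, Timm17b from -0.091 to 0.019 (0.001 without WT replicate 2), Tomm20l from -0.193 to 0.253, Timm8a1 from -0.098 to 0.127 and Timmdc1 from -0.045 to 0.075, and Tomm6 was 0.003 with upper quartile scaling and 0.068 thinned. Of the log2 ratios, Timm22 to Timm23 ran from -0.029 to 0.11 and Timm9 to Timm10 from -0.083 to 0.058 with single libraries left out, and Tomm20 to Tomm20l from -0.137 to 0.318. Regulators of the unfolded protein response and biogenesis, with 1 called higher, had 2 by DESeq2 and 0 to 3 with a library left out. The cause was not tested. Low counts in every library limit Tomm20l and Timm8a2. Leaving out single libraries for the respiratory, ribosomal, chaperone, thermogenic, blood, progenitor and lymphocyte lists was chosen after seeing the data.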

Other observations

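The 3 members on chromosome 7, which also carries Hspb6, were singled out after their values were seen. Tomm40 and Timm50, at -10.85 and -2.25 Mb from Hspb6, had the smallest spread of all 35 tested members over the libraries labelled knockout, with coefficients of variation of 0.458% and 1.25%, and Timm10b, at 75.09 Mb, had the fifth smallest, 4.52%. Tomm7 on chromosome 5 and Tomm20 on chromosome 8, with 2.41% and 2.43%, had a smaller spread than Timm10b. Hspa9 and Grpel1 had 5.55% and 12.0%. For Tomm40 and Timm50 the library labelled knockout replicate 1 thus lay as far above WT as the others did, while for most members it lay nearest to WT.

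Over all genes the same count can be made within 15 Mb of Hspb6, a window also chosen after the values were seen. There 79 of 425 tested genes, 18.6%, lay higher in every library labelled knockout than in any WT library, and the library labelled replicate 1 was the nearest to WT in 26 of them, 32.9%. Elsewhere on chromosome 7, 137 of 810 genes, 16.9%, lay higher in this way, and it was the nearest in 71, 51.8%. On other chromosomes 2481 of 14759 genes, 16.8%, lay higher in this way, and it was the nearest in 1386, 55.9%. Among genes lower in every library labelled knockout it was the nearest in 33.3% within the window. Elsewhere on chromosome 7 it was the nearest in 53.4% of such genes, and on other chromosomes in 42.9%. No test was made of these differences.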
